A study of Homo sapiens with 6 samples.

Results

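Amino acid transporters were examined in RNA-seq of BT-549 cells, an established triple-negative breast cancer (TNBC) line, with and without silencing of the lncRNA NEAT1. They were taken by gene symbol as every gene of the solute carrier (SLC) families SLC1, SLC3, SLC6, SLC7, SLC36, SLC38 and SLC43, which gave 59 of the 25545 genes in the expression table. The families held 7, 2, 19, 13, 4, 11 and 3 genes, respectively. All 6 libraries came from BT-549 cells grown with fetal bovine serum and insulin, of which 3 had been transfected with CsiRNA, the control siRNA, and 3 with NEAT1siRNA, 48 h before RNA was isolated. The sample titles carry the prefix tet- in both groups, whose meaning is not given in the sources used here. The labels describe triplicate cultures of 1 cell line and 1 NEAT1siRNA, and do not say whether the replicates were made in separate experiments, so the p-values measure the spread among these libraries only.

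Amino acids enter and leave cells through carriers of several families. The heavy chain SLC3A2 (CD98) pairs by a disulfide bond with light chains of the SLC7 family, such as SLC7A5 (LAT1) and SLC7A11 (xCT), and brings them to the plasma membrane. Carriers of SLC1 and SLC38 supply glutamine and other neutral amino acids, and SLC36A1 and SLC38A9 work at the lysosome, where SLC38A9 reports luminal arginine to the kinase mTORC1. The SLC6 and SLC43 families also hold carriers of taurine, creatine, neurotransmitters and nucleobases, which the choice by symbol did not leave out.

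The libraries held between 15783966 and 20348017 reads, as estimated from the deposited tables. NEAT1 itself was at 13.4, 7.68 and 10.8 TPM (transcripts per 1000000) in the CsiRNA libraries and at 4.36, 2.96 and 2.73 TPM in the NEAT1siRNA libraries, with no overlap, and the log2 fold change was -1.41 ± 0.14 (SE; limma, adjusted p = 1.21e-07). Of the markers of a TNBC line, ESR1 was listed at 0 in every library, the epithelial genes EPCAM and CDH1 reached at most 0.0301 and 0.168 TPM and vimentin (VIM) lay between 859 and 1112 TPM. The leukocyte gene CD3E, the endothelial genes VWF and CDH5, the neuronal gene RBFOX3 and the kidney gene UMOD were also at 0 in all 6 libraries, and PTPRC, also of leukocytes, reached at most 0.0580 TPM. ERBB2, at 5.76 to 6.36 TPM, and CD68, at 23.2 to 29.2 TPM, were expressed and did not differ past the threshold. The epithelial keratin KRT18 was at 1.04 to 2.07 TPM, with a log2 fold change of 0.29 (limma, adjusted p = 0.0801), and SYP, of neural cells, at 0.427 to 0.622 TPM. In each library 4 short noncoding RNAs held 64.4 to 68.1% of all TPM, which lowers the TPM of every other gene.

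Of the 59 transporters, 22 had a mean of at least 1 TPM over the 6 libraries and were tested, from SLC38A2 at 218 TPM down to SLC1A4 at 1.83 TPM. The other 37 were under this limit, with SLC6A16, at 0.742 TPM, just below it. Of these, 13 were at 0 in every library, where a count of 0 still allows up to 3 reads, or 0.147 to 0.190 reads in 1000000, for counting error only. A further 19 had a mean above 0 but no higher than 0.0571 TPM. Thus BT-549 cells expressed 3 of 7 SLC1 genes, 1 of 2 SLC3 genes, 4 of 19 SLC6 genes, 4 of 13 SLC7 genes, 2 of 4 SLC36 genes, 6 of 11 SLC38 genes and 2 of 3 SLC43 genes at 1 TPM or more.

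**Figure D1:**
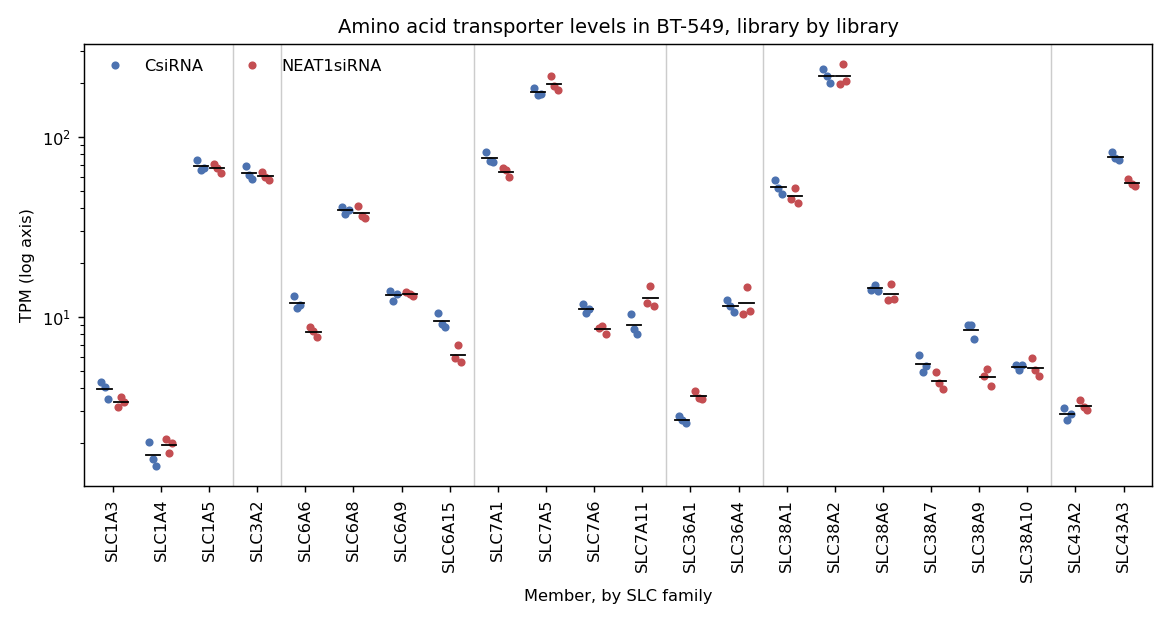
TPM (log axis) of the 22 transporters with a mean of at least 1 TPM, grouped by SLC family. Points are libraries, with CsiRNA in blue and NEAT1siRNA in red, and the black line is the mean of 3 libraries. SLC38A2 and SLC7A5 stand above all others, and the points of SLC38A9, SLC6A15, SLC43A3, SLC6A6, SLC7A11, SLC7A6, SLC36A1 and SLC7A1 do not overlap between groups.

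A few carriers made up most of the transporter mRNA. The 8 most abundant were SLC38A2, SLC7A5, SLC7A1, SLC1A5, SLC43A3, SLC3A2, SLC38A1 and SLC6A8, and they held 87.0 to 88.1% of the TPM of all 59 genes in each library. The summed TPM of all 59 was 953, 864 and 840 in CsiRNA libraries and 862, 892 and 794 in NEAT1siRNA libraries. These sums overlapped, so no loss or gain of total transporter mRNA was seen in TPM. Since these are bulk samples, fewer cells with a transcript and less of it per cell cannot be told apart.

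NEAT1 silencing was compared with CsiRNA by limma on log2(TPM + 1), and 7 of the 22 transporters passed the threshold of 0.05 on p-values adjusted over the whole table of tested genes. SLC7A11 and SLC36A1 were higher, and SLC38A9, SLC6A15, SLC43A3, SLC6A6 and SLC7A6 were lower. Across all 10721 genes tested, 14.0% were called, with 4.99% higher and 8.98% lower. This split of higher and lower calls over all genes depended on scaling, with 535 higher and 963 lower in TPM as deposited, 1158 higher and 954 lower after median centring, and 1082 higher and 1109 lower after quantile normalization. Among the transporters, both scalings gave 2 higher and 6 lower. The median log2 fold change was -0.05 for the 22 transporters and -0.04 for all genes tested. In 8 of the 22, all NEAT1siRNA libraries lay on 1 side of all CsiRNA libraries, against 30.3% of all genes tested.

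**Figure D2:**
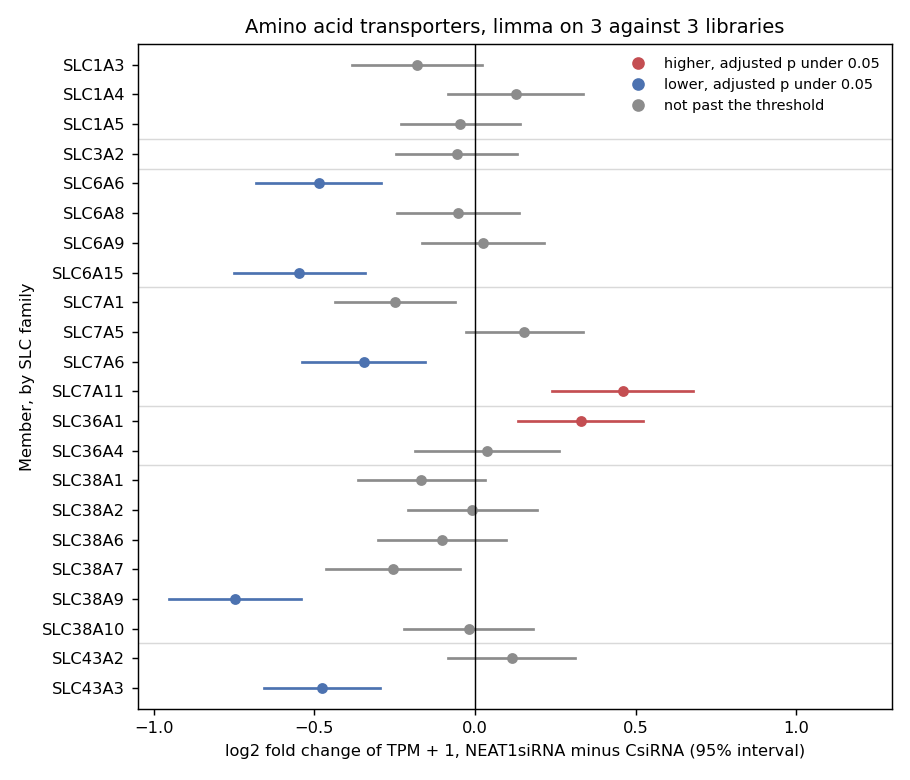
Log2 fold change of TPM + 1 (NEAT1siRNA minus CsiRNA, x axis) of the 22 transporters tested, ordered by SLC family, with 95% intervals from limma on 3 against 3 libraries. Red marks the 2 genes called higher, blue the 5 called lower and gray the 15 that did not pass an adjusted p of 0.05. SLC38A9 has the lowest value, at -0.75.

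SLC38A9 fell and SLC36A1 rose, both carriers of the lysosome. SLC38A9, the arginine sensor of the lysosomal membrane, lies at chr5:55625845-55773194 of GRCh38 on the minus strand. It was at 8.95, 8.98 and 7.54 TPM in CsiRNA libraries and at 4.69, 5.15 and 4.13 TPM in NEAT1siRNA libraries. Every NEAT1siRNA library was below every CsiRNA library, and the mean fell from 8.49 ± 0.822 to 4.65 ± 0.511 TPM (SD, n = 3), or to 54.8% of control. Its log2 fold change of -0.75 ± 0.10 (SE; 95% interval -0.95 to -0.54; limma, adjusted p = 1.24e-05) was the most negative of the 22. SLC36A1 (PAT1), a proton-coupled carrier of glycine, alanine and proline, lies on the same chromosome at chr5:151437046-151492379, on the plus strand. It was at 2.83, 2.65 and 2.57 TPM in CsiRNA libraries and at 3.85, 3.56 and 3.48 TPM in NEAT1siRNA libraries. The groups did not overlap, with a log2 fold change of 0.33 ± 0.09 (SE; limma, adjusted p = 0.0204). This call was lost when certain single libraries were left out, with adjusted p = 0.0547 without CsiRNA replicate 2, 0.0732 without CsiRNA replicate 3 and 0.0733 without NEAT1siRNA replicate 1.

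The ratio of SLC36A1 to SLC38A9 within a library does not depend on how the library was scaled. Trends on GC content, which is 51.0% for SLC36A1 and 39.9% for SLC38A9, were not removed from this ratio or from those below. The SLC36A1 to SLC38A9 ratio was 0.316, 0.296 and 0.341 in CsiRNA libraries and 0.822, 0.691 and 0.842 in NEAT1siRNA libraries. The mean ratio thus went from 0.317 ± 0.0226 to 0.785 ± 0.0822 (SD, n = 3), with no overlap. That separation follows from the levels of both genes, which moved in opposite directions without overlap, and is not further evidence. This pair and the other ratios below were chosen after the levels were known, and 3 against 3 libraries cannot go below p = 0.1 in an exact two-sided permutation test, so they are given without a test. SLC38A7, a lysosomal glutamine carrier, was at 6.13, 4.92 and 5.30 TPM in CsiRNA libraries and at 4.95, 4.29 and 3.96 TPM in NEAT1siRNA libraries. The groups overlapped, and its log2 fold change of -0.26 ± 0.10 (SE) did not pass (limma, adjusted p = 0.0944). SLC38A7 passed in 4 of 16 alternatives, among them estimated reads (-0.26, limma, adjusted p = 0.0444) and removal of GC and length trends (-0.18, limma, adjusted p = 0.0370). SLC36A4 (PAT4), the other proton-coupled carrier that was tested, had a log2 fold change of 0.04 with a 95% interval of -0.19 to 0.26.

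Promoter windows were read from RefSeq on GRCh38.p14 for 18 of the 22 transporters tested, as the 250 bases before each annotated start. No window was read for SLC7A11, SLC43A3, SLC6A6 and SLC6A15, which are 4 of the 7 called. They are shown for the lysosomal pair and for SLC7A6, as called members that moved in either direction. Capitals mark CACGTG, the E-box that MYC and the lysosomal regulators TFEB and TFE3 can bind, and TGACNNNGC, the core of the antioxidant response element, each searched on both strands. Overlapping matches were allowed.
SLC36A1, chr5:151447353-151447602, plus strand: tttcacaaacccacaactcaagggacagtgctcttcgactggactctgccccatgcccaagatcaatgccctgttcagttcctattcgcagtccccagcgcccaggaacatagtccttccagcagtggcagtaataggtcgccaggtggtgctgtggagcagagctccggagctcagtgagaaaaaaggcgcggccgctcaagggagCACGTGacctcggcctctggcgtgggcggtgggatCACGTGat
SLC38A9, chr5:55712325-55712574, minus strand: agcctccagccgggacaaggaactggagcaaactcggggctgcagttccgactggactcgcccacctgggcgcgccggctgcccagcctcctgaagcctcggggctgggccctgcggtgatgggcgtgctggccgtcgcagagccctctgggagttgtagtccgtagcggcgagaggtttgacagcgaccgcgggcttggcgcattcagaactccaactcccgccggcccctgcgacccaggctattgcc
SLC7A6, chr16:68264276-68264525, plus strand: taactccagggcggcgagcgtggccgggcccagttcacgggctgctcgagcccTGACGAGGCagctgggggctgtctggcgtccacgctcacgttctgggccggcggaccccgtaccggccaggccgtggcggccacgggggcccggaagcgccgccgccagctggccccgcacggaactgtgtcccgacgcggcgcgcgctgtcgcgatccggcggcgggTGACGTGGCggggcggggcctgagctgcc

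The SLC36A1 window held 2 E-boxes, which began 43 and 8 bases before the start. The other SLC36A1 window, before the upstream start of the same gene, held none, nor did any of the 3 windows of SLC38A9, of which 2 share nearly all their bases. Among the 18 transporters searched, an E-box was found in 3 of 33 windows (SLC36A1, SLC7A5 and SLC1A5), and 6.35% of 35116 windows of all genes held one. The antioxidant core was in 5 of the 33 windows, with 2 matches in SLC7A6, against 10.9% of all windows. TGATGNAA, the core of the amino acid response element that ATF4 binds, was in 2 of the 33 windows, of SLC1A3 and SLC1A5, against 3.14% of all windows. A match is a description of letters only.

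In the CD98 complex, mRNA of the light chains SLC7A11 and SLC7A6 changed, and no change was detectable in that of the heavy chain. SLC3A2, the heavy chain, was at 69.2, 61.1 and 58.1 TPM in CsiRNA libraries and at 63.5, 59.8 and 57.3 TPM in NEAT1siRNA libraries. The groups overlapped, with a log2 fold change of -0.06 (95% interval -0.25 to 0.13). The kidney heavy chain SLC3A1 had a mean of 0.00334 TPM. SLC7A5 (LAT1), which carries leucine and other large neutral amino acids, was at 187, 170 and 173 TPM in CsiRNA libraries and at 217, 191 and 183 TPM in NEAT1siRNA libraries. Its lowest NEAT1siRNA library was below its highest CsiRNA library, and the log2 fold change of 0.15 ± 0.09 (SE) did not pass (limma, adjusted p = 0.269), although it passed on estimated reads (0.20, adjusted p = 0.0451) and after removal of GC and length trends (0.20, adjusted p = 0.00594).

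SLC7A11 (xCT), the cystine and glutamate antiporter that feeds glutathione synthesis, lies at chr4:138164097-138242349 on the minus strand. It was at 10.3, 8.55 and 8.02 TPM in CsiRNA libraries and at 11.9, 14.8 and 11.4 TPM in NEAT1siRNA libraries. All NEAT1siRNA libraries were above all CsiRNA libraries, the mean rose from 8.96 ± 1.2 to 12.7 ± 1.85 TPM (SD, n = 3), and the log2 fold change was 0.46 ± 0.11 (SE; limma, adjusted p = 0.00460). With no filter on TPM the calls of SLC7A11 (adjusted p = 0.116), SLC36A1 (0.0813) and SLC7A6 (0.0597) were lost, and none of the transporters was called higher. SLC7A6 (y+LAT2), which exports arginine in exchange for glutamine and sodium, lies at chr16:68264516-68301823 on the plus strand. It was at 11.8, 10.5 and 11.0 TPM in CsiRNA libraries and at 8.66, 8.85 and 8.04 TPM in NEAT1siRNA libraries. The groups did not overlap, and the log2 fold change was -0.35 ± 0.09 (SE; limma, adjusted p = 0.0128). This call was lost without CsiRNA replicate 1 (adjusted p = 0.0744) and without NEAT1siRNA replicate 3 (adjusted p = 0.0764). SLC7A6OS, on the opposite strand, shares 53.9% of the exon bases of SLC7A6, and whether the counting used strand is not given in the sources used here. SLC7A6OS was at 4.25, 4.91 and 3.98 TPM in CsiRNA libraries and at 3.82, 4.20 and 4.19 TPM in NEAT1siRNA libraries, so it overlapped between groups. The antisense gene of SLC7A11 was at 0 in all libraries but CsiRNA replicate 3, where it was at 0.00861 TPM.

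SLC7A5 held most of the light chain mRNA in both groups. It made up 89.3, 89.8 and 89.9% of the TPM of the SLC3A2 light chains in CsiRNA libraries and 91.3, 88.9 and 90.3% in NEAT1siRNA libraries. The share of SLC7A6 went from 5.64 ± 0.103% to 3.91 ± 0.239% (SD, n = 3), and that of SLC7A11 from 4.54 ± 0.381% to 5.85 ± 0.959%, neither overlapping between groups. SLC7A11 was thus below SLC7A6 in every CsiRNA library, with a ratio of 0.871, 0.816 and 0.729, and above it in every NEAT1siRNA library, with a ratio of 1.37, 1.68 and 1.42. Here too the separation of the ratios follows from the levels of both genes. The ratio of SLC7A5 to SLC3A2 went from 2.82 ± 0.144 to 3.27 ± 0.127, also with no overlap. Of the remaining light chains, SLC7A8 and SLC7A13 were at 0 in every library and SLC7A9 and SLC7A10 were at 0.0193 and 0.00788 TPM on average. SLC7A7, the y+LAT1 light chain, was under the limit for testing at 0.210, 0.207 and 0.309 TPM in CsiRNA libraries and 0.142, 0.0671 and 0.114 TPM in NEAT1siRNA libraries. These values rest on 4 to 20 reads per library.

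**Figure D3:**
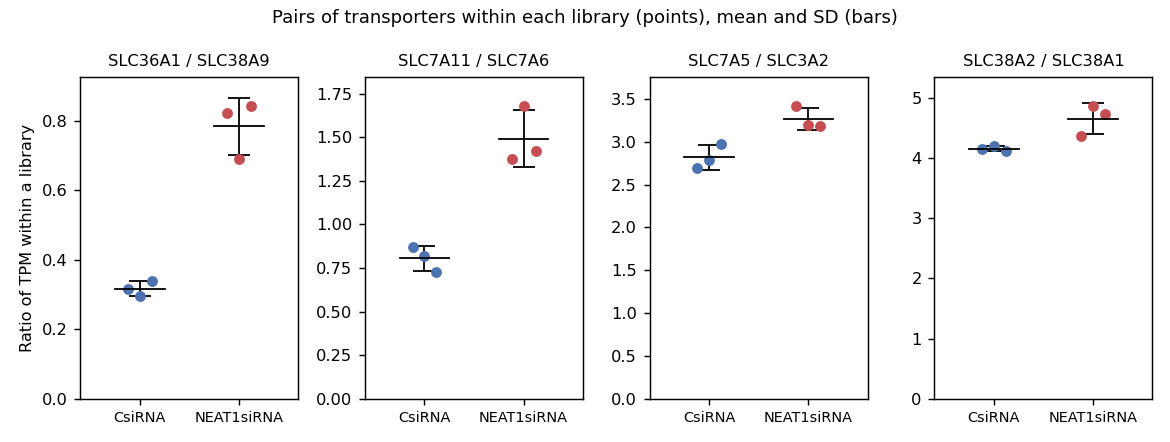
Ratio of TPM within each library (y axis, from 0) for SLC36A1 over SLC38A9, SLC7A11 over SLC7A6, SLC7A5 over SLC3A2 and SLC38A2 over SLC38A1. Points are libraries, and bars are the mean and SD of 3 libraries. In all 4 pairs, which were chosen after the levels were known, the NEAT1siRNA libraries lie above the CsiRNA libraries, and the mean of SLC36A1 over SLC38A9 goes from 0.317 to 0.785. For SLC36A1 over SLC38A9 and SLC7A11 over SLC7A6 this follows from levels that do not overlap.

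Among the cationic amino acid carriers, only SLC7A1 reached 1 TPM. SLC7A1 (CAT1), the main importer of arginine and lysine in many cells, was at 82.7, 73.4 and 72.6 TPM in CsiRNA libraries and at 66.7, 65.7 and 59.5 TPM in NEAT1siRNA libraries. Its groups did not overlap, but its log2 fold change of -0.25 ± 0.09 (SE; 95% interval -0.44 to -0.06) did not pass over all genes (limma, adjusted p = 0.0673). It was the single one of the 8 transporters with separate groups that was not called, and it passed under 9 of 17 alternative settings. SLC7A2 was at 0.0571 TPM on average, and SLC7A3, SLC7A4 and SLC7A14 were at 0 in every library.

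The SLC6 family had 4 genes at 1 TPM or more, of which SLC6A15 and SLC6A6 fell. SLC6A15 (B0AT2), a sodium-coupled carrier of branched-chain amino acids and proline, lies at chr12:84859491-84913629 on the minus strand. It was at 10.4, 9.11 and 8.81 TPM in CsiRNA libraries and at 5.92, 6.93 and 5.62 TPM in NEAT1siRNA libraries. The groups did not overlap, the NEAT1siRNA mean was 65.2% of control, and the log2 fold change was -0.55 ± 0.10 (SE; limma, adjusted p = 0.000460). SLC6A6 (TauT), the taurine carrier, lies at chr3:14402576-14489349 on the plus strand. It was at 13.0, 11.3 and 11.6 TPM in CsiRNA libraries and at 8.73, 8.29 and 7.69 TPM in NEAT1siRNA libraries. The groups did not overlap, and the log2 fold change was -0.49 ± 0.09 (SE; limma, adjusted p = 0.000960). The creatine carrier SLC6A8 and the glycine carrier SLC6A9 (GlyT1) had log2 fold changes of -0.05 (95% interval -0.24 to 0.14) and 0.03 (-0.16 to 0.21). The summed SLC6 family was at 78.7, 70.3 and 73.9 TPM in CsiRNA libraries and at 70.5, 65.7 and 62.6 TPM in NEAT1siRNA libraries, which overlapped narrowly. The other 15 SLC6 genes were under 1 TPM, and 6 of them were at 0 in every library, among them the glycine carrier SLC6A5 and the broad neutral and cationic carrier SLC6A14.

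In the SLC43 family, SLC43A3 carried the change. SLC43A3, which is known as a purine nucleobase carrier rather than as an amino acid carrier, lies at chr11:57406954-57427580 on the minus strand. It was at 81.8, 76.2 and 74.6 TPM in CsiRNA libraries and at 58.3, 54.7 and 53.3 TPM in NEAT1siRNA libraries. The groups did not overlap, the mean fell from 77.5 ± 3.77 to 55.4 ± 2.59 TPM (SD, n = 3), and the log2 fold change was -0.48 ± 0.09 (SE; limma, adjusted p = 0.000557). An unnamed protein-coding gene on the same strand shares 51.5% of its exon bases, and reads from the pair may not be separable. SLC43A2 (LAT4), a carrier of large neutral amino acids, was at 3.10, 2.69 and 2.90 TPM in CsiRNA libraries and at 3.45, 3.15 and 3.04 TPM in NEAT1siRNA libraries, with a log2 fold change of 0.11 (95% interval -0.08 to 0.31). SLC43A2 passed after removal of GC and length trends (0.20, limma, adjusted p = 0.0152). SLC43A1 (LAT3) had a mean of 0.666 TPM. With the SLC6 and SLC43 carriers of other substrates left out, 5 of 19 transporters tested were called, with 2 higher and 3 lower. Over all genes tested, 14.0% were called, with 4.99% higher and 8.98% lower.

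SLC38A2, SLC38A1 and SLC1A5, carriers of glutamine at the plasma membrane, did not pass. SLC38A2 (SNAT2), the most abundant of all 59 and a gene known to be induced by amino acid shortage, was at 239, 218 and 198 TPM in CsiRNA libraries and at 197, 253 and 203 TPM in NEAT1siRNA libraries. Its NEAT1siRNA values spanned the whole CsiRNA range, with a log2 fold change of -0.01 (95% interval -0.21 to 0.19). SLC38A1 (SNAT1) was at 57.5, 51.8 and 48.2 TPM in CsiRNA libraries and at 45.1, 52.1 and 42.9 TPM in NEAT1siRNA libraries, with a log2 fold change of -0.17 (-0.37 to 0.03). SLC38A1 passed without NEAT1siRNA replicate 2 (-0.25, limma, adjusted p = 0.0397) and after removal of GC and length trends (-0.12, limma, adjusted p = 0.0355). The ratio of SLC38A2 to SLC38A1 was 4.15, 4.21 and 4.11 in CsiRNA libraries and 4.36, 4.86 and 4.74 in NEAT1siRNA libraries, which did not overlap. SLC1A5 (ASCT2), an exchanger of glutamine and other neutral amino acids, had a log2 fold change of -0.05 (-0.23 to 0.14) at 68.9 ± 4.43 and 66.7 ± 3.81 TPM (SD, n = 3). SLC38A6 and SLC38A10 had log2 fold changes of -0.10 (-0.30 to 0.10) and -0.02 (-0.22 to 0.18). SLC38A6 passed after removal of GC and length trends (-0.15, limma, adjusted p = 0.0388). All 6 SLC38 genes tested had a negative fold change. Only that of SLC38A9 passed in the main comparison, while those of SLC38A1, SLC38A6 and SLC38A7 also passed after removal of GC and length trends. Those of SLC38A2 and SLC38A10 turned positive under median centring, at 0.05 and 0.04.

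In the SLC1 family, the glutamate carrier SLC1A3 (EAAT1) and the neutral exchanger SLC1A4 (ASCT1) had log2 fold changes of -0.18 (95% interval -0.38 to 0.02) and 0.13 (-0.08 to 0.34). Of the SLC1 genes under 1 TPM, the glutamate carrier SLC1A1 (EAAT3) was at 0.564, 0.610 and 0.414 TPM in CsiRNA libraries and at 0.449, 0.65 and 0.613 TPM in NEAT1siRNA libraries, which overlapped. The glutamate carrier SLC1A6 was at 0.340, 0.276 and 0.394 TPM in CsiRNA libraries and at 0.496, 0.619 and 0.530 TPM in NEAT1siRNA libraries. These groups did not overlap, but the values rest on 23 to 58 reads per library and were not tested.

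Summed by family, transporter mRNA was separate between groups in SLC43. The SLC43 sum was at 85.8, 79.4 and 78.2 TPM in CsiRNA libraries and at 62.5, 58.4 and 56.9 TPM in NEAT1siRNA libraries, and the sums of the other families overlapped. The SLC7 sum was 273 ± 16.1 and 282 ± 21.2 TPM (SD, n = 3), the SLC38 sum 305 ± 26.0 and 292 ± 37.4 TPM, and the SLC36 sum 14.2 ± 1.03 and 15.6 ± 2.25 TPM. The SLC1 sum was 75.5 ± 5.02 and 73.2 ± 3.69 TPM, and the SLC3 sum is in effect that of SLC3A2.

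Base composition differed among the libraries of a group. Over 10424 genes, a gene's GC content was rank-correlated with its deviation from the mean of its own group. The correlation ran from -0.73 in NEAT1siRNA replicate 2 to 0.68 in NEAT1siRNA replicate 1. These values describe spread within a group and do not measure a difference between the groups. The transcripts of SLC7A11 and SLC38A9 have a GC content of 35.4% and 39.9%, and both had their highest NEAT1siRNA value in replicate 2. With trends on GC content and length removed, SLC7A11 was at 0.47 and SLC38A9 at -0.75 on the log2 scale, and all 7 called transporters still passed. In this setting 13 of the 22 were called in all. Calls rose over all genes too, to 3468 of 10424 from 1498 of 10721 in the main comparison.

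The genes around the transporters were described with lists that were likewise chosen with earlier results known. Among 12 other genes tested, which were 11 mitochondrial, lysosomal and other carriers and a copy of part of SLC7A5, 4 were lower and none was higher, or 3 of the 11 carriers, where 14.0% of all genes tested were called and 8.98% were lower. SLC25A44, the mitochondrial carrier of branched-chain amino acids, was at 23.4, 22.1 and 22.6 TPM in CsiRNA libraries and at 15.7, 14.6 and 14.1 TPM in NEAT1siRNA libraries, with a log2 fold change of -0.59 (limma, adjusted p = 7.30e-05). The lysosomal cystine exporter CTNS and the lysosomal histidine and peptide carrier SLC15A4 were both at -0.29, with adjusted p = 0.0465 and 0.0413 (limma). SLC7A5P2, the near-identical copy of part of SLC7A5, was at -0.47 (limma, adjusted p = 0.00780), from 1.83 to 1.03 TPM on average, and adding it to SLC7A5 changed no call.

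Of 32 tested genes of amino acid sensing by mTORC1, 3 were lower and 2 were higher, or 15.6% called, near the 14.0% of all genes tested. The kinase MTOR fell by 0.35 on the log2 scale (limma, adjusted p = 0.0198), and WDR59 of GATOR2 fell by 0.36 (limma, adjusted p = 0.0120). CASTOR2, a paralog of the cytosolic arginine sensor CASTOR1, rose by 0.43 (limma, adjusted p = 0.00413), and BMT2 (SAMTOR), the S-adenosylmethionine sensor, rose by 0.31 (limma, adjusted p = 0.0408). SLC38A9 and CASTOR2 thus differed in direction. The Rag GTPases RRAGA and RRAGC, which relay the signal of SLC38A9, had log2 fold changes of 0.02 (95% interval -0.17 to 0.21) and 0.03 (-0.18 to 0.23).

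Of 22 tested enzymes that make or use the carried amino acids, 5 were higher and none was lower, where 4.99% of all genes tested were higher, and 8.98% lower, in TPM as deposited. ASS1, which makes argininosuccinate for arginine synthesis, was at 13.2, 11.8 and 13.4 TPM in CsiRNA libraries and at 22.6, 22.0 and 22.0 TPM in NEAT1siRNA libraries, with a log2 fold change of 0.75 (limma, adjusted p = 2.92e-06). IDO1, which breaks down tryptophan, rose by 0.73 from 1.15 to 2.57 TPM on average (limma, adjusted p = 3.80e-05). CTH, which makes cysteine from cystathionine, rose by 0.39, and PHGDH and PSPH of serine synthesis rose by 0.37 and 0.30 (limma, adjusted p = 0.00688, 0.00615 and 0.0383). Of 11 tested genes of cystine and glutathione metabolism, 2 were higher and none was lower, or 18.2% called, against 14.0% of all genes tested. GPX4, which reduces lipid peroxides with glutathione, was higher by 0.33 and CHAC1, which cleaves glutathione, by 0.31 (limma, adjusted p = 0.0116 and 0.0309). The glutathione synthesis subunits GCLC and GCLM, which share a pathway with SLC7A11, had log2 fold changes of -0.15 (95% interval -0.36 to 0.05) and 0.22 (-0.01 to 0.45).

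**Figure D4:**
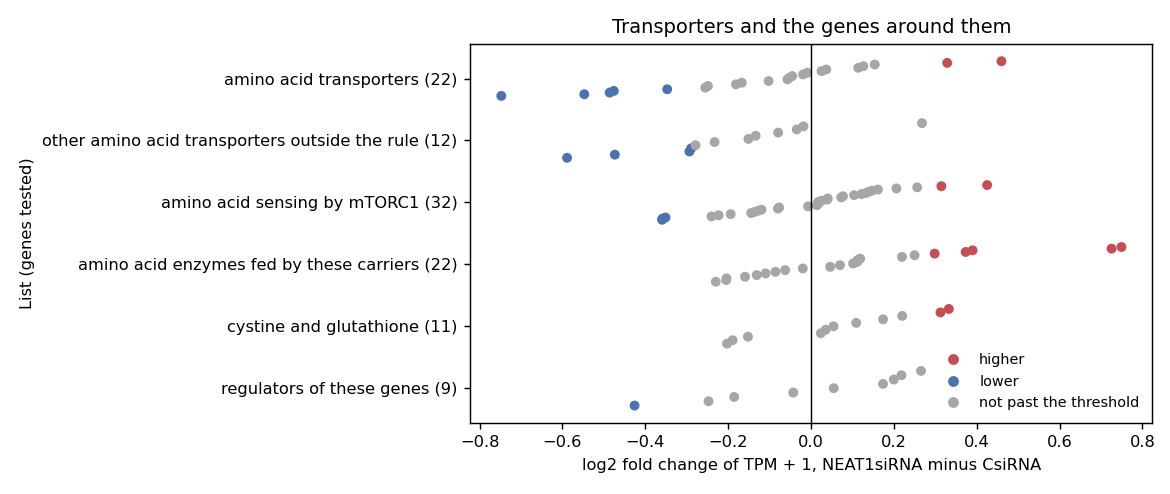
Log2 fold change of TPM + 1 (NEAT1siRNA minus CsiRNA, x axis) for the genes tested in 6 lists, with each point a gene and points sorted within a list for display only. Red and blue mark genes called higher and lower by limma. The 22 transporters spread to both sides, the 12 genes of the list of other transporters have 4 calls, all lower, and the 22 enzymes have 5 calls, all higher.

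Of 9 tested regulators of transporter genes, MYC was lower and no other passed, or 11.1% called, against 14.0% of all genes tested. MYC was at 38.6, 36.3 and 35.3 TPM in CsiRNA libraries and at 27.2, 28.1 and 25.9 TPM in NEAT1siRNA libraries, with a log2 fold change of -0.43 (limma, adjusted p = 0.00197). ATF4, which induces SLC7A11, SLC7A5 and SLC38A2 under amino acid shortage, had a log2 fold change of 0.05 (95% interval -0.12 to 0.23), and NFE2L2 (NRF2), which also induces SLC7A11, of 0.17 (-0.02 to 0.37). The groups did not overlap in 6 of the 9 regulators, in both directions and with ATF4 and NFE2L2 among them, against 30.3% of all genes tested. These are mRNA levels, and the activity of the regulators was not tested. Among the mesenchymal markers, FN1 and CDH2 were lower, with log2 fold changes of -0.47 and -0.34 (limma, adjusted p = 0.00116 and 0.0186), and VIM and ZEB1 did not pass. The list summed to 1150 to 1335 TPM in CsiRNA libraries and to 1005 to 1203 TPM in NEAT1siRNA libraries, and its part in the transporter values was not tested.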

How the data were processed

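RNA was isolated from BT-549 cells in triplicate cultures, and stranded mRNA libraries were prepared. The authors aligned reads with STAR to GRCh38 and compared groups with DESeq2. How reads were counted per gene is not given in the sources used here. In the expression table, the authors give TPM for 25545 genes, which sum to 1000000 in each library. In the comparison table for 19392 genes, the authors give a mean normalized count over all libraries (a signal after division by size factors), with fold changes and p-values that were not used. Reads per gene and library were estimated by joining both tables, for depth and 1 alternative. Of genes with a mean normalized count under 5, 99.8% gave whole reads within 0.05, and of those from 5 to 50, 98.7%. From 50 to 500 the share was 49.5%, and from 500 up it was 10.4%. Each tested transporter had a mean of at least 190 reads, so its reads are estimates and were not checked as whole counts.

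A mean of 1 TPM or more was required, and genes were compared on log2(TPM + 1) with lmFit and eBayes (trend) of limma 3.58.1 in R 4.3.3, two-sided, with Benjamini-Hochberg adjustment over 10721 genes and a threshold of 0.05. A fold change on this scale understates the change of low genes. The script was tested on 10 simulated sets, each with 100 genes changed by 1 and 100 by 0.5 on the log2 scale. It found 98.4% and 86.4% of these genes, but the mean share of false calls was 14.86%, above the threshold. An adjusted p under 0.05 here is thus less strict than its name, which matters most for calls close to 0.05. Every transporter with a mean of at least 1 TPM was described, and those past the threshold in each library. Lower members were counted, those near the limit and the most abundant being named. In other lists, genes past the threshold were named, at most 5 a list with values, except for an item that is not reported here, and further genes (the Rag GTPases, GCLC, GCLM, ATF4, NFE2L2, VIM and ZEB1) were named after their values were seen. The members and lists were chosen with earlier results of these data known. GENCODE v44 on GRCh38 gave the coordinates, exon overlaps, GC content and transcript lengths, and all 59 transporters were found in it. Figures used matplotlib 3.10.9 in Python 3.11.15. Alternatives changed the pseudocount, filter, scaling, trend, replicate block, GC and length trends, test and libraries.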

Additional observations from a re-analysis of the deposited data

How the results depend on the processing

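SLC38A9, SLC6A15, SLC43A3 and SLC6A6 kept their direction and their call in all 17 alternatives, with log2 fold changes of -0.85 to -0.68, -0.62 to -0.48, -0.51 to -0.40 and -0.53 to -0.39. SLC7A11 lost its call with no filter on TPM (adjusted p = 0.116), as did SLC7A6 (0.0597) and SLC36A1 (0.0813), which left 4 transporters called, 0 higher, and 505 of 18531 genes called, 242 higher and 263 lower. The cause was not tested. With a mean of at least 5 TPM, SLC36A1 was not tested and 1 transporter was higher. Among all genes, 1082 were higher after quantile normalization, 1158 after median centring and 918 without the short noncoding RNAs. Limma's voom on estimated reads called 2481 genes, 1157 of them higher. Removal of GC and length trends called 3468 genes, 1704 higher and 1764 lower, and 13 transporters, 4 higher and 9 lower. Leaving out each library in turn gave 784 to 2076 genes, 391 to 538 higher and 393 to 1586 lower, and 6 to 9 transporters, 1 to 2 higher and 4 to 7 lower. The lowest totals over all genes were 784 without CsiRNA replicate 1 and 832 without NEAT1siRNA replicate 3, and the highest number of lower calls, 1586, came without NEAT1siRNA replicate 2. Where carriers of other substrates were left out, 3 transporters were lower, since fewer genes were counted.

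The replicate numbers are shared between groups. Deviations of libraries with the same number correlated at -0.03, 0.25 and -0.11, and not every library correlated best with its own number. Deviations from a group mean of 3 libraries must sum to 0, and they followed GC content within a group. They therefore cannot decide whether the numbers pair the libraries. A replicate block gave 1640 genes (579 higher, 1061 lower) and 8 transporters, 2 higher and 6 lower, SLC7A1 being the added one. The block with GC and length trends removed gave 3390 genes, 1683 higher and 1707 lower, and 12 transporters, 4 higher and 8 lower.

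No fold change that was called turned its sign. Those that did were near 0: under median centring SLC1A5 at 0.0116, SLC3A2 at 9.88e-07, SLC6A8 at 0.0047, SLC38A2 at 0.0478 and SLC38A10 at 0.0377, under quantile normalization SLC38A2 at 0.0232 and SLC38A10 at 0.0168, without the short noncoding RNAs SLC38A2 at 0.0231 and SLC38A10 at 0.0083, on estimated reads SLC38A2 at 0.0368 and SLC38A10 at 0.0205, and with GC and length trends removed, with or without the block, SLC38A10 at 0.0119. With each library left out in turn, SLC1A5 ran from -0.0847 to 0.0059, SLC3A2 from -0.111 to 0.0142, SLC6A9 from -0.0262 to 0.0638, SLC36A4 from -0.106 to 0.119, SLC38A2 from -0.122 to 0.0590 and SLC38A10 from -0.0989 to 0.0429. The lowest transporter tested had 190 reads per library on average. The 37 under the filter were left out by their TPM, and with no filter the 24 of them that were above 0 were tested and none was called.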
